A study of Drosophila melanogaster with 9 samples.

Results

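The genes described here encode nucleolar ribosome assembly factors and RNA exosome factors of Drosophila melanogaster. Their symbols were matched to FlyBase gene IDs through Ensembl's BDGP6 annotation. Of 40 named symbols, 39 were found among the 17024 IDs of the count tables, and hoip, a snoRNP protein gene, was not analysed here. The 39 genes comprised 29 assembly factors, 9 exosome subunits (with the helicase Mtr4 counted among them) and the exonuclease gene Rat1. All 39 passed the filter on low counts, as did 8789 of the 17024 IDs.

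Poly(A) RNA was sequenced from ovaries of aramis::GFP::FLAG flies dissected 1 to 3 days after eclosion, in 3 groups of 3 replicates. Input was the 10% of lysate that was set aside for RNA extraction, IgG was the RNA recovered with a control mouse antibody, and IP was the RNA recovered with an antibody against FLAG. All 9 libraries carried the same genotype, so IgG was the only control for the pulldown and no library here came from flies without the tag. Larp is given as the tagged protein in the text on the design, but all sample labels give aramis and were followed here. Nothing in the labels says whether replicates came from separate sets of flies, so p-values measure the spread between these libraries, which may be technical.

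Ribosome assembly starts in the nucleolus, where pre-ribosomal RNA is transcribed, chemically modified under the guidance of small nucleolar RNAs (snoRNAs) and cleaved, while assembly factors join and leave the precursors of the small and large subunits. The RNA exosome is a barrel of subunits with attached nucleases that trims RNA from its 3′ end, ribosomal RNA precursors among them, and the helicase Mtr4 feeds it in the nucleus. Nurse cells of the fly ovary make ribosomes in bulk for the egg, and ribosome production is also tied to the differentiation of germline stem cells.

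Total counts ran from 30533376 to 47080956 per library, and at least 1 count was found for 10966 to 11205 IDs in Input, whereas IP had 9700 to 9985 and IgG 7805 to 7929. The biological coefficient of variation over all genes tested was 0.15 in the fit of IP and Input, 0.596 in that of IP and IgG and 0.546 in that of IgG and Input. Germline markers (7 genes, none at 0) summed to between 3680 and 3915 CPM in Input, 3385 and 3653 in IgG and 3409 and 3976 in IP, where CPM stands for counts scaled to library size with TMM factors. The 8 follicle cell markers, none at 0, summed to between 20964 and 23754 CPM in Input, 33573 and 43214 in IgG and 29610 and 33995 in IP. Those of the muscle sheath (7 of 8 in the files, none at 0) lay between 184 and 374 CPM in Input, 494 and 2781 in IgG and 133 and 927 in IP. Fat body markers summed to at most 2.41 CPM in any library, with Fbp2 at 0 in all of them, and nervous system markers to between 0.141 and 11.8 CPM. Haemocyte markers summed to between 3.33 and 10.4 CPM in Input, 14.3 and 128 in IgG (with eater at 0) and 6.51 and 28.1 in IP. Follicle cell markers were therefore higher in both pulldowns than in Input, and the sums of muscle sheath and haemocyte markers were higher in IgG. The part of these shifts in the values below was not tested. In lysate of whole ovaries, fewer cells of a type and less RNA per cell cannot be told apart.

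The assembly factor genes shared a short sequence at their starts that the exosome genes mostly lacked. The E-box CACGTG, the letters that the Myc and Max family of growth regulators is known to bind, was searched in the RefSeq window from 250 bases before to 50 bases after each gene start (Release 6 assembly, dm6). It reads the same on both strands. The letters stood in the windows of 25 of 29 assembly factor genes (86.2%), 2 of 9 exosome genes (22.2%, Csl4 and Dis3) and not in that of Rat1, against 586 of 13944 windows of protein-coding genes (4.2%) and 375 of 8251 windows of genes tested here (4.54%). In 24 of the 29 assembly factor genes (82.8%) a match lay after the start, between positions 3 and 45 with a median of 32 (the first base of the gene is position 1 and the base before it is position -1), whereas 1.33% of all windows held one there. Position 45 is the last at which the letters fit in the window, and sequence further downstream was not searched. All 9 small-subunit factor genes held a match, and the 4 assembly factor genes without one were Nop17l, Ns2, pit and vito. Of the 35 other genes of the pathway in the files, 17 held a match (48.6%). The DNA replication-related element TATCGATA, also the same on both strands, stood in 6 of the 29 assembly factor windows (20.7%) and 1 of the 9 exosome windows, beside 14.0% of genes tested and 9.37% of all windows. These are matches of letters, not binding sites. The windows around the E-box, which stands in capitals, are printed on the strand of the gene for both exosome genes with a match and for the assembly factor genes with the 4 highest or 4 lowest fold changes in any comparison below, because the results turn on these. The vito window has no match, those of Fib, Mys45A and nclb are not shown, and a shorter window ends where the searched stretch ends.
NHP2 (chr3L:14802132-14802161, minus strand, match at position 20): ggtcacactgaaCACGTGtttcgaacaaaa
Nopp140 (chr3L:21832780-21832809, plus strand, position 19): ataagtagaaaaCACGTGtgagtgcgcatt
Ns1 (chr3R:17072636-17072665, minus strand, position 23): gaagactattttCACGTGttcttgttttaa
Ns3 (chrX:1464171-1464191, minus strand, position 42): gggcaaacattgCACGTGttt
RIOK1 (chr3L:11648425-11648450, minus strand, position 37): tggcattcgcaaCACGTGcgattggt
RIOK2 (chr3R:25265837-25265866, plus strand, position 6): ctatcgtgcctgCACGTGtgaaacgaaaac
Mat89Ba (chr3R:16272367-16272396, minus strand, position 32): ccgcatctgcaaCACGTGcgagtttagctc
FBgn0010926 (chr3R:17539915-17539944, minus strand, position 32): gttattgggttgCACGTGtgaggtgttttg
l(1)G0004 (chrX:20391450-20391479, plus strand, position 16): ggtcacactgagCACGTGgagcagacaaag
Nnp-1 (chr2L:13366140-13366167, minus strand, position 35): atcgaacggcaaCACGTGcggtcgtgcc
Surf6 (chr3R:19904820-19904849, minus strand, position 32): cttgcttagctgCACGTGtgcgtgcgtaaa
Csl4 (chr2L:11123530-11123559, minus strand, position 21): cacactgcattgCACGTGtgtttccatttg
Dis3 (chr3R:24333267-24333296, plus strand, position -154): acgtgcgttctaCACGTGctaagcgccgat

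**Figure D1:**
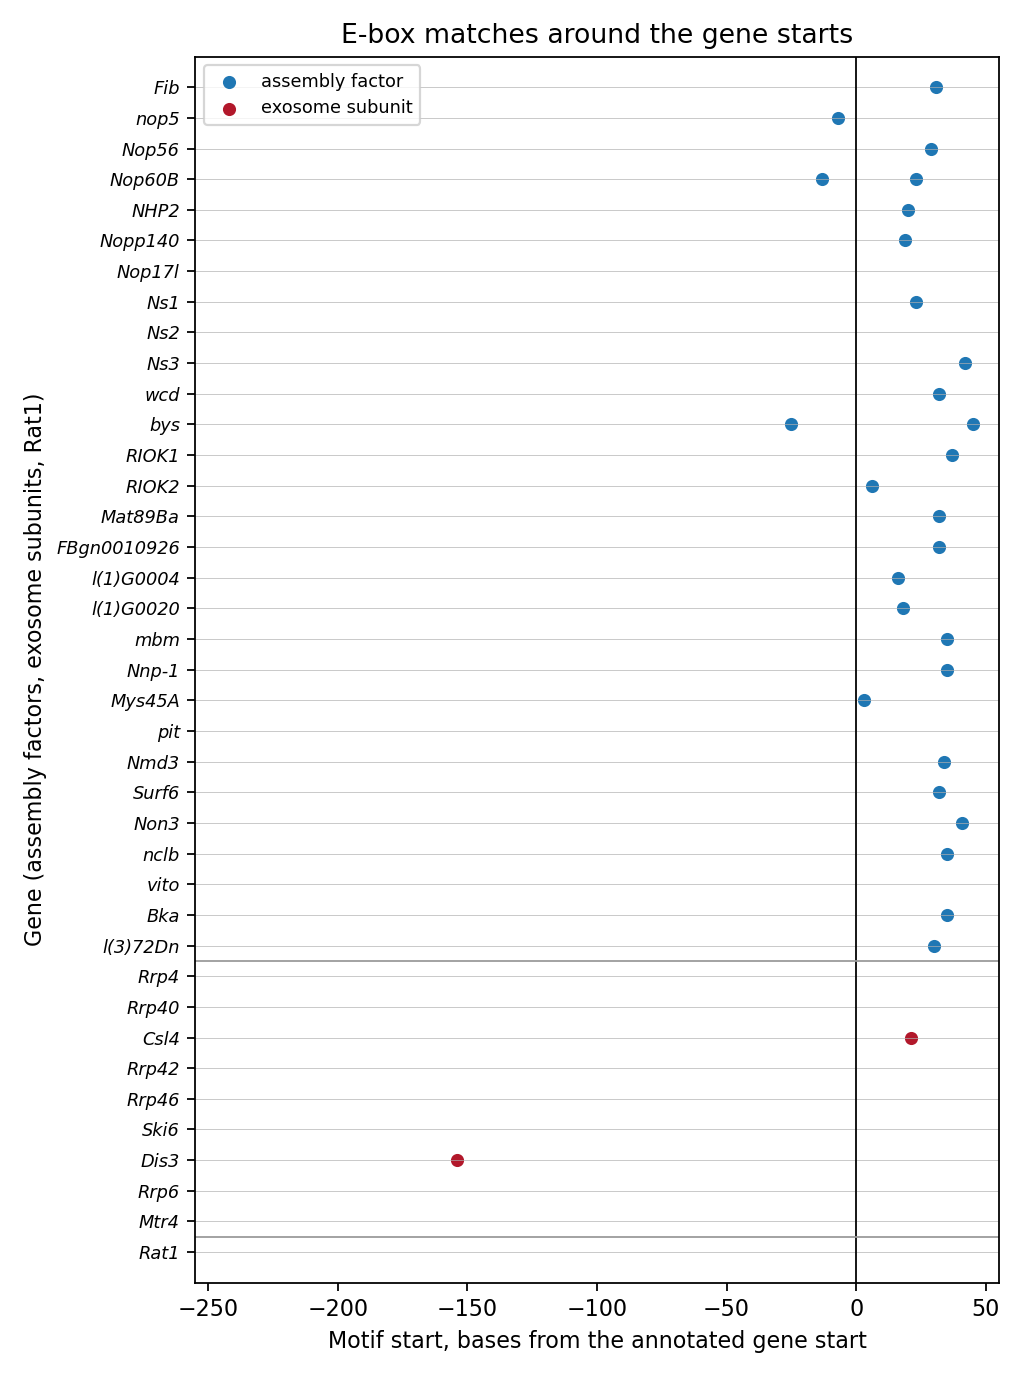
Position of each E-box match (x axis, bases from the annotated gene start, which is the vertical line) in the window of each of the 39 genes (y axis), with assembly factors in blue and exosome subunits in red. Most matches of assembly factor genes lie between positions 3 and 45, the last position that the searched window allows. The exosome genes have 1 match at position 21 and 1 at position -154.

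In Input, the assembly factor mRNAs were the more abundant per unit of exon length. Their levels in TPM (transcript levels corrected for exon length and scaled to the same total in every library) had a median of 100.1, from 34.2 ± 3.12 for RIOK2 to 499.9 ± 13.0 for Nop60B (SD, n = 3). Exosome subunits had a median of 54.7 TPM, from 24.9 ± 0.682 for Rrp40 to 84.9 ± 5.12 for Rrp4, and Rat1 stood at 80.2 ± 2.70 TPM, beside a median of 39.7 over genes tested. Proteins of the small nucleolar ribonucleoproteins (snoRNPs) led the assembly factors with a median of 284 TPM over 7 genes. In descending order these were Nop60B, nop5 (350.2 ± 13.8), Nop56 (309 ± 31.5), Nopp140 (284 ± 11.6), Fib (271 ± 20.4), NHP2 (245 ± 8.67) and Nop17l (80.8 ± 4.39), where the neighbours Nop56, Nopp140 and Fib differed by less than their larger SD. The 9 exosome genes were more even, and Csl4 (57.4 ± 4.86 TPM), Mtr4 (57.0 ± 2.15), Rrp6 (54.7 ± 1.63), Rrp42 (50.4 ± 1.27), Dis3 (49.3 ± 2.68) and Rrp46 (49.0 ± 2.52) followed Rrp4 and Ski6 (64.6 ± 1.18). Within the last 3 of these, neighbours differed by less than their spread. Exon lengths had a median of 1813 bases for assembly factors and 1031 for exosome subunits, beside 2093 for genes tested.

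**Figure D2:**
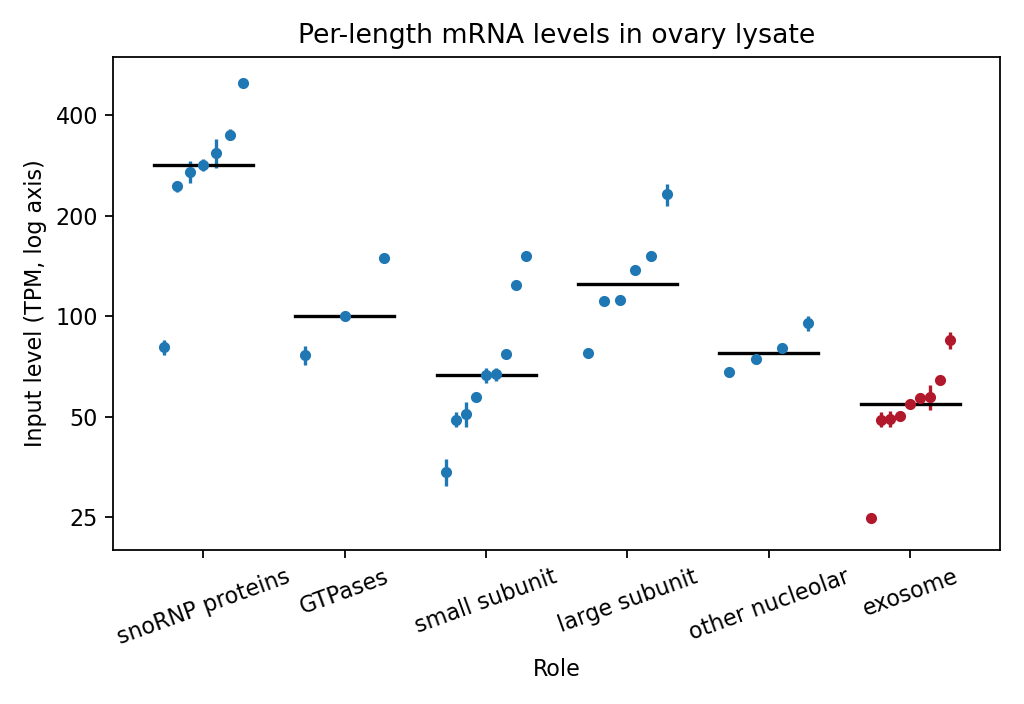
Input level of each gene in TPM (y axis, log scale) by role (x axis), with points at the mean and bars at ±1 SD over 3 libraries and the median of each role as a black line. The snoRNP proteins have the highest median (284 TPM) and the exosome subunits (red) the lowest (54.7 TPM).

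The 3 comparisons were made, each over the 6 libraries of its groups, with edgeR's quasi-likelihood test and Benjamini-Hochberg adjustment over the 8789 genes, and a gene was called at an adjusted p under 0.05. They share libraries with each other, so their values are given side by side and not as independent results. Between IP and Input, 30 of 39 genes were called, 9 higher in IP and 21 lower, beside 59.2% of all genes tested (28.5% higher and 30.8% lower). Assembly factors accounted for 7 higher and 15 lower of 29, exosome subunits for 1 higher and 6 lower of 9, and Rat1 was higher. Between IgG and Input 9 of 39 were called, 2 higher in IgG (l(1)G0004 and Fib) and 7 lower (Nopp140, Nop17l, Ns1, RIOK1, Mys45A, Dis3 and Rrp6), beside 26.9% of all genes tested (10.3% higher and 16.6% lower). Between IP and IgG only Mat89Ba was called, higher in IP, beside 7.96% of all genes tested (4.77% higher and 3.2% lower). In that comparison 14 of the 39 had an unadjusted p under 0.05, beside 2402 of the 8789 genes tested. DESeq2 called 8 there, with Mat89Ba, nop5 and Nop60B higher in IP and NHP2, Ns1, Nop56, vito and nclb lower. For DESeq2 and the other alternative fits, the share of all genes called is not given here. The edgeR counts moved with single libraries. Without IgG replicate 1, 2 or 3, the count between IP and IgG was 5, 2 and 2. Without Input replicate 1, 2 or 3, that between IgG and Input was 3, 2 and 2. The CPM values of IP and IgG did not overlap for 17 of the 39, 10 of them higher in IP and 7 lower, beside 33.1% of genes tested (20.2% higher and 13.0% lower). In a fit of all 9 libraries together, 20 of 39 were called between IP and Input, 8 higher and 12 lower, and the 10 calls lost were those of Ns2, Nop17l, RIOK2, FBgn0010926, Non3, nclb, Csl4, Rrp42, Ski6 and Mtr4. Scaling by library totals in place of TMM lost those of Ns2, Nop17l, FBgn0010926 and Ski6 and moved Non3 to -0.17, while a correction for exon length moved Nop17l to -0.36 and FBgn0010926 to -0.44. A correction for exonic GC content lost the call of Rrp42 and added those of Nop60B, higher in IP, and of bys, Nmd3, l(1)G0020 and wcd, lower in IP.

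**Figure D3:**
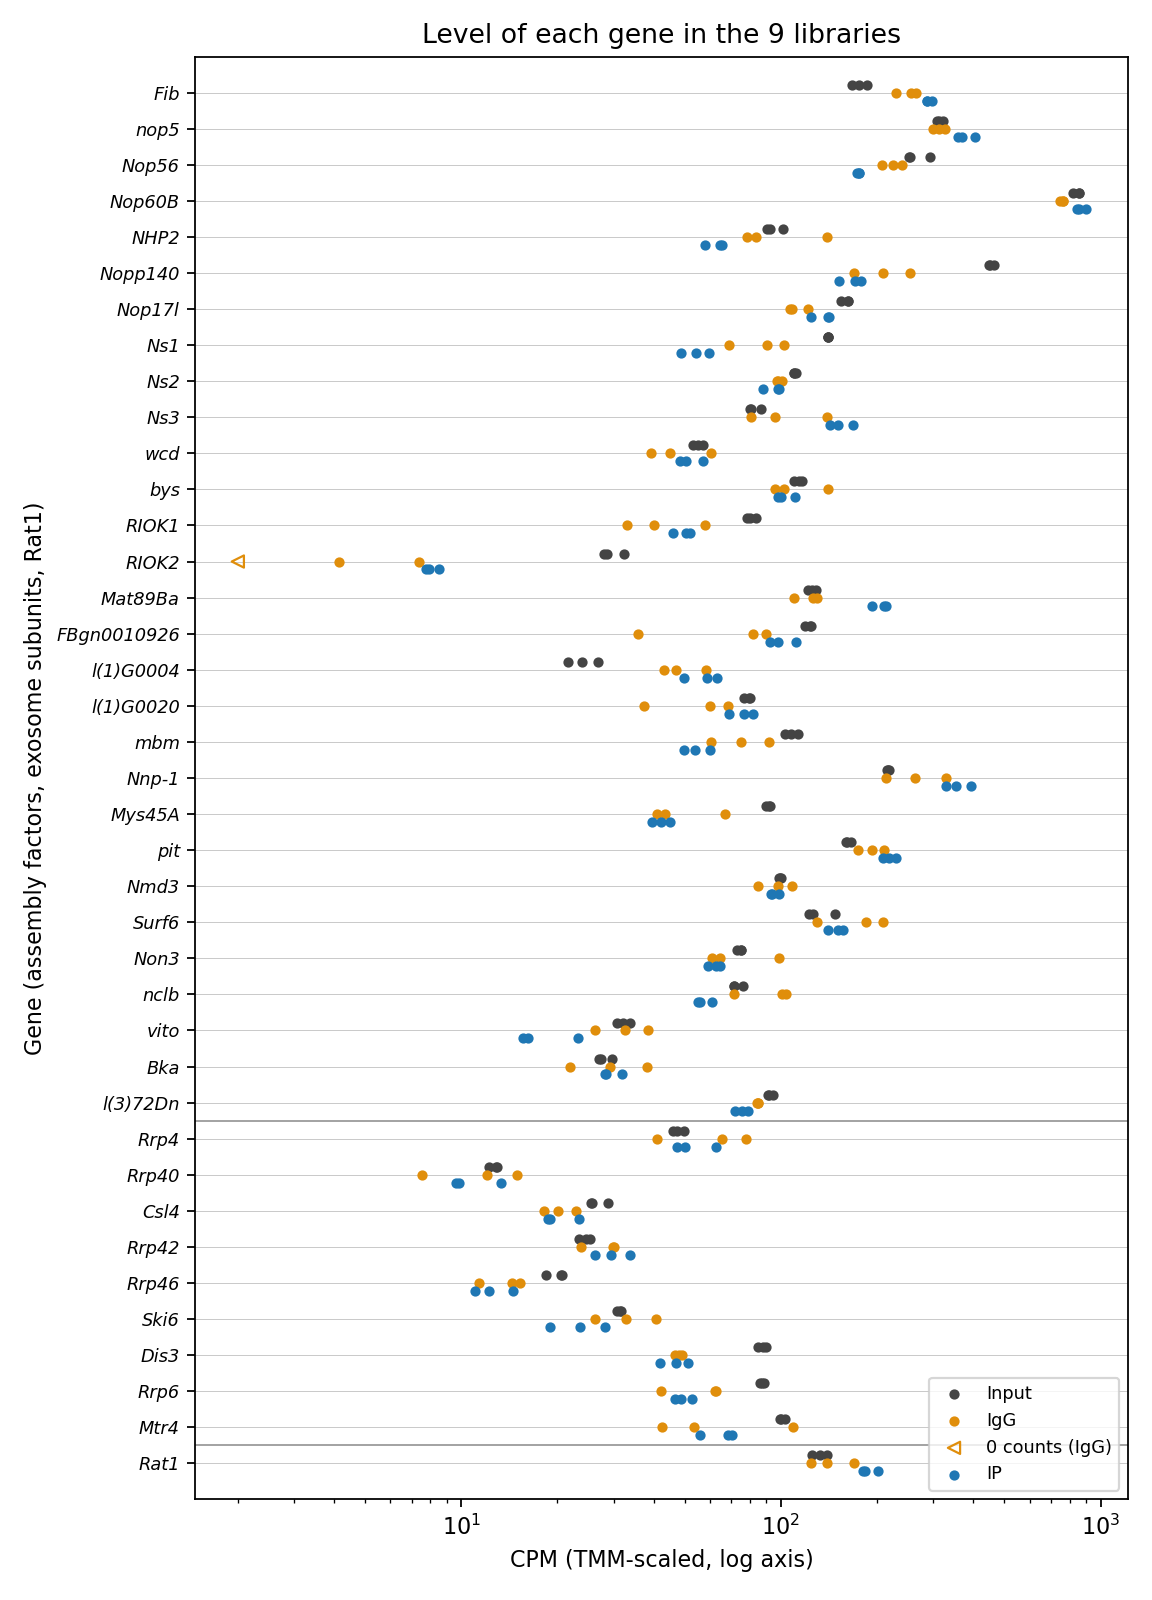
Level of each gene in each library in CPM (x axis, log scale and 1 point per library, with Input in grey, IgG in orange and IP in blue), where the open triangle marks the IgG library in which RIOK2 had 0 counts and stands at the left edge because 0 has no place on a log scale. Input points lie close together, as for Ns1 between 140.0 and 140.5 CPM, and IgG points are the most spread, as for Mtr4 between 42.5 and 109 CPM.

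Among the snoRNP proteins, Fib and nop5 were higher in IP than in Input, Nop56, NHP2, Nopp140 and Nop17l were lower, and Nop60B was not called. Fib, the methyltransferase fibrillarin of the box C/D snoRNPs, had 186, 176 and 167 CPM in Input replicates 1, 2 and 3, 264, 255 and 229 in IgG and 286, 297 and 286 in IP. Every Fib value was thus higher in both pulldowns than in Input, and the IP values were above those of IgG. On the log2 scale IP exceeded Input by 0.71 ± 0.05 (SE) (adjusted p = 2.53e-06), IgG exceeded Input by 0.50 ± 0.08 (adjusted p = 0.0111), and IP over IgG stood at 0.24 ± 0.09 (adjusted p = 0.122). The IgG over Input call was lost without Input replicate 2 (adjusted p = 0.0608) or Input replicate 3 (adjusted p = 0.0636), and with a correction for exonic GC content (0.20, adjusted p = 0.165). The same correction moved the IP over Input value of Fib to 0.31 (adjusted p = 0.000487) and that of nop5 to 0.17 (adjusted p = 0.0183), both still called. Nop56 and nop5 (Nop58 in yeast) form the core of the same C/D particles, and differed in opposite directions between IP and Input, nop5 by 0.26 ± 0.06 (adjusted p = 0.00259) and Nop56 by -0.61 ± 0.06 (adjusted p = 2.27e-05). Between IP and IgG neither was called, at 0.30 ± 0.09 (adjusted p = 0.0711) and -0.33 ± 0.10 (adjusted p = 0.0738), although without IgG replicate 1 Nop56 was (adjusted p = 0.0323). Both were called with DESeq2 (adjusted p = 0.0300 for nop5 and 0.00937 for Nop56) and in the fit of all 9 libraries (0.0168 and 0.0136). With library totals or the replicate block, nop5 was called too (adjusted p = 0.0170 and 0.0480). An intron each of Fib, nop5 and Nop60B holds a snoRNA gene.

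Nop60B, the fly dyskerin, is the pseudouridine synthase of the box H/ACA snoRNPs and NHP2 is a core protein of the same particles. Nop60B had 0.03 ± 0.05 for IP over Input (adjusted p = 0.599) and, with a correction for exonic GC content, 0.18 (adjusted p = 0.010), and 522 of its exonic bases are shared with snoRNA genes on the same strand. NHP2 was measured at 92.7, 90.2 and 101 CPM in Input, 78.1, 83.5 and 139.7 in IgG and 64.5, 58.1 and 65.4 in IP. Its IP values lay below all others, with a log2 fold change of -0.60 ± 0.07 over Input (adjusted p = 5.32e-05) and of -0.66 ± 0.23 over IgG (adjusted p = 0.107). Nopp140, a chaperone that binds snoRNPs in the nucleolus, had 463, 449.7 and 447 CPM in Input, 253, 169 and 209 in IgG and 178, 171 and 152 in IP. Both pulldowns were far below Input and overlapped with each other, at -1.44 ± 0.06 for IP over Input (adjusted p = 1.05e-07), -1.11 ± 0.14 for IgG over Input (adjusted p = 0.00491) and -0.30 ± 0.15 for IP over IgG (adjusted p = 0.243). Nop17l differed by -0.24 ± 0.06 between IP and Input (adjusted p = 0.00696) and by -0.51 ± 0.09 between IgG and Input (adjusted p = 0.0125), a call that was lost without any 1 of the Input libraries (adjusted p from 0.0609 to 0.0630).

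The 3 GTPases belong to the nucleostemin family, a family known for roles in large-subunit maturation and export. Ns1 and Ns2 were lower in IP than in Input, and Ns3 was higher. Ns1 stood at 140.5, 140.0 and 140.5 CPM in Input, 68.6, 90.4 and 102 in IgG and 54.2, 48.8 and 59.7 in IP. No 2 groups overlapped and IP was the lowest, with -1.38 ± 0.08 for IP over Input (adjusted p = 3.43e-07) and -0.69 ± 0.16 for IgG over Input (adjusted p = 0.0209). For IP over IgG the value was -0.66 ± 0.19 (adjusted p = 0.0691), which became a call without IgG replicate 1 (adjusted p = 0.0202). The IgG over Input call was lost without Input replicate 1, 2 or 3 (adjusted p = 0.0766, 0.0762 and 0.0756). Ns3 was measured at 86.4, 80.4 and 79.8 CPM in Input, 95.7, 80.9 and 139.7 in IgG and 168, 143 and 151 in IP. IP was above every other library, by 0.90 ± 0.07 over Input (adjusted p = 3.12e-06) and by 0.57 ± 0.20 over IgG (adjusted p = 0.106). Leaving out IgG replicate 3, the high one, gave an adjusted p of 0.0179 for Ns3 in IP over IgG. Ns2 differed by -0.23 ± 0.06 between IP and Input (adjusted p = 0.00861) and was not called elsewhere.

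Of the 9 small-subunit factors, 2 were higher in IP than in Input, 4 were lower and wcd, bys and l(1)G0020 were not called. Over all genes tested, 28.5% were higher and 30.8% lower. Mat89Ba, the fly counterpart of nucleolar protein 6 of the small-subunit processome, had 129, 125 and 121 CPM in Input, 129, 126 and 109.7 in IgG and 193, 210.2 and 214 in IP. Input and IgG overlapped, and all 3 IP values were above all 6 others. The log2 fold change was 0.71 ± 0.06 over Input (adjusted p = 3.93e-06) and 0.78 ± 0.11 over IgG (adjusted p = 0.00338), and -0.04 ± 0.10 for IgG over Input (adjusted p = 0.805). Across 17 alternative fits its IP over IgG value ran from 0.58 to 0.97 with an adjusted p of at most 0.0278. A stretch of 105 of its exonic bases is shared with Mst89B on the opposite strand.

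The other small-subunit factor that was higher in IP, l(1)G0004, the counterpart of yeast Pno1, was measured at 21.6, 23.9 and 26.7 CPM in Input, 47.1, 43.1 and 58.3 in IgG and 49.9, 58.6 and 63.3 in IP. Both pulldowns were above Input and overlapped with each other, at 1.25 ± 0.11 for IP over Input (adjusted p = 8.82e-06), 1.04 ± 0.18 for IgG over Input (adjusted p = 0.0127) and 0.23 ± 0.19 for IP over IgG (adjusted p = 0.502). The IgG over Input call was lost without Input replicate 1, 2 or 3 (adjusted p = 0.0630, 0.0608 and 0.0589). RIOK1 and RIOK2 encode atypical kinases that act in late maturation of the small subunit. RIOK1 stood at 80.3, 78.3 and 83.5 CPM in Input, 57.9, 32.9 and 40.1 in IgG and 51.8, 45.9 and 50.6 in IP, and was lower than Input in IP by -0.71 ± 0.07 (adjusted p = 1.18e-05) and in IgG by -0.89 ± 0.22 (adjusted p = 0.0260). Without Input replicate 1, 2 or 3, or IgG replicate 3, the latter was not called (adjusted p from 0.0595 to 0.0963).

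RIOK2 had the lowest fitted values of the 39 genes for both IP over Input and IgG over Input. It was counted 1394, 1103 and 1347 times in Input, 253, 111 and 0 times in IgG and 302, 330 and 381 times in IP. In CPM these were 32.2, 28 and 28.5 in Input, 7.37, 4.15 and 0 in IgG and 7.94, 7.74 and 8.53 in IP, and the 0 of IgG replicate 3 allows up to 0.0651 CPM (3 counts, counting error only). IP values were well below Input and above all 3 IgG values, the highest of which came close, at -1.88 ± 0.11 over Input (adjusted p = 4.71e-07) and 1.10 ± 1.45 over IgG (adjusted p = 0.715). In the fit of all 9 libraries the IP over Input call of RIOK2 was lost (adjusted p = 0.245, the highest of 17 alternatives). IgG over Input stood at -2.96 ± 1.37 (adjusted p = 0.171), and without IgG replicate 3 at -2.36 (adjusted p = 0.00950). The antisense gene asRNA:CR45214 covers 849 of its 1751 exonic bases, and the strand setting of the counting is not given in the sources used here.

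The gene FBgn0010926, the counterpart of yeast Nop14, had 124, 119 and 123 CPM in Input, 81.6, 35.8 and 89.5 in IgG and 112, 97.8 and 92.6 in IP. No 2 groups overlapped, with -0.28 ± 0.07 for IP over Input (adjusted p = 0.00717), 0.57 ± 0.31 for IP over IgG (adjusted p = 0.280) and -0.82 ± 0.33 for IgG over Input (adjusted p = 0.117), the last of which was called without IgG replicate 2 (-0.51, adjusted p = 0.010). P5cr-2 on the other strand shares 1265 exonic bases with it. The nucleolar protein gene mbm differed by -0.99 ± 0.08 between IP and Input (adjusted p = 3.43e-06), and between IgG and Input by -0.52 ± 0.16 (adjusted p = 0.0590), which was called without IgG replicate 1 (adjusted p = 0.0132). For bys, which encodes bystin, the IP over Input value of -0.15 ± 0.06 (adjusted p = 0.0603) was called with the replicate number as a block (adjusted p = 0.0409), without IP replicate 1 (adjusted p = 0.0108) and with GC correction (-0.21). The values of wcd (-0.09 ± 0.08), a component of the U3 snoRNP, and l(1)G0020 (-0.06 ± 0.07), an RNA acetyltransferase, were not called, but with a correction for exonic GC content they were -0.21 (adjusted p = 0.0319) and -0.23 (adjusted p = 0.0187).

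Of the 6 large-subunit factors, 2 were higher in IP than in Input and 2 were lower, beside 28.5% and 30.8% of all genes tested. Nnp-1, the counterpart of yeast Rrp1, was measured at 215, 219 and 216 CPM in Input, 329, 214 and 262 in IgG and 394, 328 and 354 in IP. All IP values were above Input, and IgG replicate 1 lay just above the lowest IP value. Its fitted values were 0.72 ± 0.07 for IP over Input (adjusted p = 8.57e-06), 0.31 ± 0.15 for IgG over Input (adjusted p = 0.195) and 0.45 ± 0.15 for IP over IgG (adjusted p = 0.101). Without IgG replicate 1 Nnp-1 was called in IP over IgG (0.59, adjusted p = 0.0424), and without IgG replicate 2 in IgG over Input (0.45, adjusted p = 0.0324). The DEAD-box helicase gene pit was higher in IP by 0.42 ± 0.05 (adjusted p = 6.66e-05), and without IgG replicate 2 also in IgG over Input (0.31, adjusted p = 0.0226). Mys45A, the counterpart of yeast Sda1, had 91.6, 90.2 and 92.2 CPM in Input, 67.1, 43.4 and 40.8 in IgG and 45.1, 42.2 and 39.5 in IP. Both pulldowns lay below Input, by -1.12 ± 0.07 for IP (adjusted p = 5.29e-07) and -0.86 ± 0.20 for IgG (adjusted p = 0.0242), and did not separate from each other (-0.23 ± 0.23, adjusted p = 0.610). The IgG over Input call of Mys45A was lost without any 1 of the Input libraries or IgG replicate 2 (adjusted p from 0.0601 to 0.0864).

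Surf6 was the large-subunit factor with high IgG values, at 123, 126 and 148 CPM in Input, 208, 130.0 and 185 in IgG and 151, 140.0 and 156 in IP. Its groups overlapped, and none of its comparisons was called, with 0.17 ± 0.08 for IP over Input (adjusted p = 0.0853) and 0.40 ± 0.18 for IgG over Input (adjusted p = 0.165). With the replicate number as a block the former was called (adjusted p = 0.0184), as it was without Input replicate 3 (adjusted p = 0.0118), and without IgG replicate 2 the latter was (0.57, adjusted p = 0.0188). Non3, the fly Rpf2, differed by -0.26 ± 0.06 between IP and Input (adjusted p = 0.00435). Nmd3, the export adaptor of the large subunit, had -0.07 ± 0.05 (adjusted p = 0.293), and -0.19 with a correction for exonic GC content (adjusted p = 0.0109).

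Among the remaining nucleolar protein genes, nclb and vito had IP values below both other groups. The counts of nclb (the fly PWP1) came to 76.0, 71.6 and 71.6 CPM in Input, 103, 71.5 and 101 in IgG and 55.7, 60.7 and 55 in IP. IP did not overlap with either group, at -0.36 ± 0.07 over Input (adjusted p = 0.00100) and -0.66 ± 0.18 over IgG (adjusted p = 0.0590). Without IgG replicate 2, nclb was called in IP over IgG (-0.83, adjusted p = 0.0134) and in IgG over Input (0.48, adjusted p = 0.0108). For vito, the fly counterpart of nucleolar protein 12, the values were 30.7, 32.0 and 33.7 CPM in Input, 38.3, 26.3 and 32.5 in IgG and 15.7, 16.1 and 23.2 in IP. Input and IgG overlapped and IP lay below them, by -0.81 ± 0.15 against Input (adjusted p = 0.00100) and -0.79 ± 0.27 against IgG (adjusted p = 0.0978). Of the other two genes, l(3)72Dn differed by -0.30 ± 0.06 between IP and Input (adjusted p = 0.00133) and Bka by 0.07 ± 0.09 (adjusted p = 0.518).

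**Figure D4:**
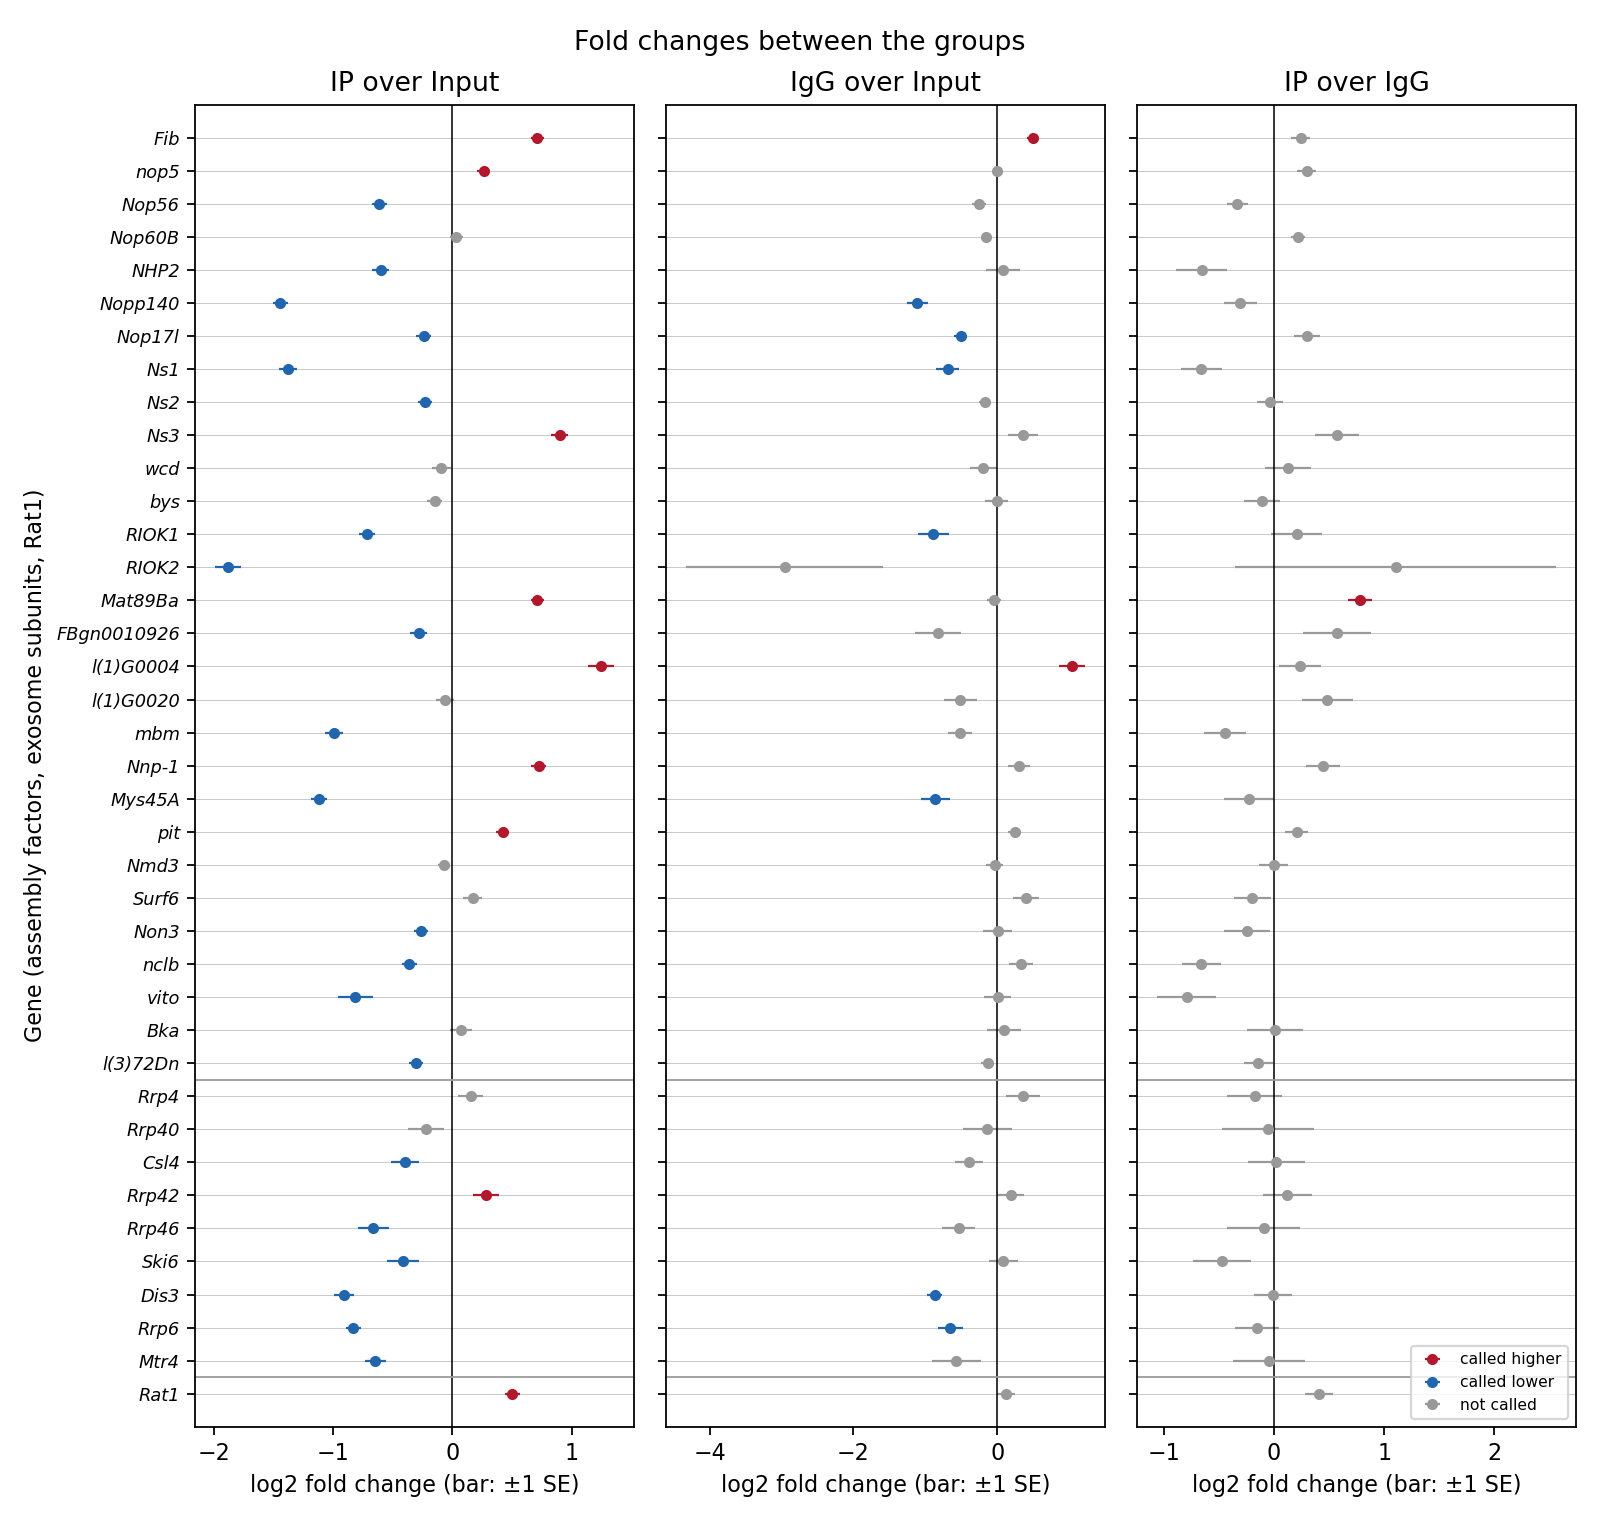
Log2 fold change of each gene (y axis) in the 3 comparisons (one panel each, x axes on different scales), with bars at ±1 SE and colour for the call (red higher, blue lower, grey not called). Mat89Ba is the only coloured point in IP over IgG, and RIOK2 has the widest bars in both comparisons with IgG (SE 1.45 and 1.37).

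In the exosome, both nucleases, the helicase and the barrel subunits Rrp46, Ski6 and Csl4 were lower in IP than in Input, Rrp42 was higher, and Rrp4 and Rrp40 were not called. Dis3, the nuclease at the base of the barrel, had 89.7, 88.0 and 84.6 CPM in Input, 47.8, 49.1 and 46.7 in IgG and 41.8, 51.4 and 46.8 in IP. Input stood well apart from both pulldowns, which overlapped, at -0.91 ± 0.08 for IP over Input (adjusted p = 8.13e-06), -0.87 ± 0.11 for IgG over Input (adjusted p = 0.00392) and -0.01 ± 0.17 for IP over IgG (adjusted p = 0.983). CG6432 shares 149 exonic bases with Dis3 on the same strand. Rrp6, the nuclease of the nuclear exosome, was measured at 85.8, 88.7 and 87.5 CPM in Input, 62.2, 42.2 and 62.7 in IgG and 52.6, 46.5 and 48.6 in IP. This pattern was that of Dis3, with -0.83 ± 0.06 for IP over Input (adjusted p = 3.1e-06), -0.65 ± 0.18 for IgG over Input (adjusted p = 0.0367) and -0.15 ± 0.20 for IP over IgG (adjusted p = 0.716). The IgG over Input call of Rrp6 was lost without Input replicate 1, 2 or 3 (adjusted p = 0.120, 0.130 and 0.121) and with a correction for exon length, whereas no left-out library changed a call of Dis3.

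Mtr4, the helicase that delivers nuclear RNA to the exosome, stood at 103, 100.4 and 99.7 CPM in Input, 109, 53.4 and 42.5 in IgG and 68.2, 70.2 and 55.7 in IP. Here 1 IgG library was as high as Input while the other two were below it. Mtr4 was lower in IP than in Input by -0.65 ± 0.09 (adjusted p = 0.000115), a call that the fit of all 9 libraries did not make (adjusted p = 0.142, the highest of 17 alternatives). For IgG over Input the value was -0.57 ± 0.34 (adjusted p = 0.286), and without IgG replicate 1 it was -1.07 (adjusted p = 0.00593).

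The ring subunits resemble the bacterial enzyme RNase PH. Rrp46 had 20.5, 18.5 and 20.7 CPM in Input, 15.3, 14.5 and 11.3 in IgG and 11, 14.5 and 12.2 in IP, and was lower in IP than in Input by -0.66 ± 0.13 (adjusted p = 0.00157). Ski6 (Rrp41 in yeast) had 30.8, 31.4 and 31.7 CPM in Input, 26.2, 32.8 and 40.7 in IgG and 18.9, 28.2 and 23.5 in IP. All IP values and 1 IgG value lay below Input. IP was lower than Input by -0.42 ± 0.14 (adjusted p = 0.0234), and the call was lost without Input replicate 1, 2 or 3 (adjusted p = 0.0576, 0.0606 and 0.0679). Rrp42 was the exception, at 24.6, 23.4 and 25.4 CPM in Input, 23.6, 29.8 and 30.2 in IgG and 29.5, 33.6 and 26.1 in IP. IP exceeded Input by 0.28 ± 0.11 (adjusted p = 0.0471) for Rrp42, a call that was lost on leaving out Input replicate 1, 2 or 3 (adjusted p = 0.107, 0.148 and 0.0810) or IP replicate 1 or 2 (adjusted p = 0.0684 and 0.142) and with a correction for exonic GC content (0.15, adjusted p = 0.267).

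The cap subunits bind RNA at the entrance of the barrel. Rrp4 stood at 49.6, 47.4 and 46.0 CPM in Input, 77.7, 65.4 and 41.1 in IgG and 62.5, 50.1 and 47.2 in IP, so the groups overlapped (IP over Input 0.15 ± 0.10, adjusted p = 0.225). Without IgG replicate 3 Rrp4 was called higher in IgG than in Input (0.58, adjusted p = 0.0178). Rrp40 had 12.9, 12.2 and 12.9 CPM in Input, 7.54, 12.1 and 15.0 in IgG and 13.3, 9.85 and 9.60 in IP. Of the 9 exosome genes it had the lowest mean CPM in Input, IgG and IP. Its IP over Input value was -0.22 ± 0.15 (adjusted p = 0.243), and -0.38 without IP replicate 1 (adjusted p = 0.0249), while 362 of its 1031 exonic bases are shared with Eno on the opposite strand. Csl4 was measured at 28.7, 25.7 and 25.5 CPM in Input, 20.1, 22.8 and 18.2 in IgG and 18.9, 18.6 and 23.4 in IP. Both pulldowns lay below Input, IP by -0.40 ± 0.12 (adjusted p = 0.0143), and this call was lost without Input replicate 1 (adjusted p = 0.0754) or IP replicate 2 (adjusted p = 0.0508). Between IP and IgG, edgeR called 0 of 9 exosome genes, beside 7.96% of all genes tested, and DESeq2 called 0. An unadjusted edgeR p under 0.05 was found for 0 of the 9, beside 2402 of the 8789 genes tested.

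Rat1, the nuclear exonuclease that degrades RNA from the 5′ end and trims ribosomal RNA precursors, differed from the exosome nucleases in direction. Its levels were 125, 133 and 139 CPM in Input, 169, 139.5 and 125 in IgG and 180.2, 184 and 201 in IP. IP was above all other libraries, by 0.50 ± 0.06 over Input (adjusted p = 7.05e-05) and by 0.41 ± 0.13 over IgG (adjusted p = 0.0852). Without IgG replicate 1, Rat1 was called in IP over IgG (0.51, adjusted p = 0.0327). On the opposite strand, Wee1 shares 334 of the exonic bases of Rat1.

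Set side by side, the summed level of the exosome subunits differed by a larger proportion of itself between lysate and pulldowns than that of the assembly factors, which differed more in CPM from Input to IgG and from Input to IP. The assembly factors summed to 4377 ± 77.3 CPM in the Input libraries, 3933 ± 272 in the IgG libraries and 4187 ± 103 in the IP libraries, and the exosome subunits to 438 ± 6.09, 340.0 ± 43.7 and 311 ± 15.8 CPM (SD, n = 3 each). Per library, the assembly sum ran from 4294 to 4447 CPM in Input, 3620.3 to 4121 in IgG and 4079.9 to 4286 in IP, so that IP and Input were narrowly apart. The exosome sum ran from 434 to 445 CPM in Input, 308 to 389.9 in IgG and 293 to 323 in IP, so Input was above both pulldowns and these overlapped. The ratio of assembly to exosome sums was 9.86 to 10.1 in Input libraries, 10.6 to 13.2 in IgG libraries and 12.6 to 14.3 in IP libraries, and no test was made on these sums. The assembly sum adds genes that went in both directions. So does the exosome sum, in which Mtr4, Dis3 and Rrp6 had the highest Input means (101, 87.4 and 87.3 CPM). Their means were 68.4, 47.9 and 55.7 CPM in IgG and 64.7, 46.7 and 49.2 CPM in IP. The means of Rrp4 and Rrp42 were above Input in both pulldowns, and that of Ski6 in IgG. An exosome sum without Mtr4, Dis3 and Rrp6 was not computed. Fitted IP over Input values ran from -1.88 to 1.25 for assembly factors and from -0.91 to 0.28 for exosome subunits. Nop60B, not called between IP and Input, averaged 843 CPM in Input. Median log2 fold changes of the assembly factors were -0.23 for IP over Input, -0.04 for IgG over Input and 0.01 for IP over IgG. For the exosome subunits they were -0.42, -0.39 and -0.05, beside 0.01, -0.01 and 0.03 for all genes tested. The exosome medians between same-numbered libraries were -0.45 ± 0.13 for IP over Input and -0.35 ± 0.16 for IgG over Input, and those of the assembly factors -0.19 ± 0.05 and -0.16 ± 0.01, beside -0.01 ± 0.01 and -0.11 ± 0.01 for all genes tested (SD, n = 3 pairs). Between IgG and Input the numbers were not taken to pair the samples. Whether the libraries matched for the SD values there belong together is not known. On leaving out a library, the fitted assembly median for IgG over Input ran from -0.15 to -0.030. With 9 genes in the exosome list, 1 library moved its IP over Input median to -0.57 (without IP replicate 2).

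Group means centred per gene on the log2 scale were compared among the 39 genes only, and no gene outside them was searched. Of the 39, those most like Fib over the 3 groups were Nnp-1 (Euclidean distance 0.162), pit (0.224) and Ns3 (0.233). Those most like Mtr4 were Rrp46 (0.0318), Rrp6 (0.130) and Csl4 (0.184). The IgG mean of Mtr4 behind these distances holds 1 library at 109 CPM beside 53.4 and 42.5, and no distance was computed without it. In a list of 48 other genes of the pathway (further exosome and processing factors, RNA polymerase I subunits and nucleolar proteins), 35 were in the files and 34 were tested. Of these, 7 were higher and 18 lower in IP than in Input (73.5% called, beside 59.2% of all genes tested). In IgG 0 were higher and 6 lower than in Input (17.6%, beside 26.9%). Between IP and IgG 2 were higher and 3 lower in IP (14.7%, beside 7.96%). The median log2 fold changes of the list were -0.27, -0.06 and -0.19. The further exosome ring genes Mtr3 (-0.36, adjusted p = 0.0022) and Rrp45 (-0.68) were lower in IP than in Input. The 5 genes of the list called between IP and IgG were l(2)k09022 (0.70) and Polr1A (0.69), higher in IP, and Non1 (-0.72), Tif-IA (-0.70) and Nlp (-0.36), lower in IP.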

How the data were processed

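Poly(A) RNA of 3 Input, 3 IgG and 3 IP libraries was analysed from the raw counts that the authors deposited, whole numbers per FlyBase gene ID without normalization. The submitters' processing notes name HISAT2 2.1.0, featureCounts 1.4.6 and the genome build dm6, and the annotation and the rules for strand and overlapping genes are not given in the sources used here. IDs were named through Ensembl's BDGP6 annotation, which left 377 of 17024 unnamed (4.79% to 18.6% of a library's counts). These include the malformed ID FBgn000003, with 5.89% to 14.6% of IgG counts, 0.684% to 1.04% of IP counts and at most 0.0612% of Input counts, and a fit without it is among the alternatives. Promoter windows and their sequences came from RefSeq.

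The comparisons used edgeR 4.0.16 under R 4.3.3 (robust quasi-likelihood test, two-sided, TMM scaling), each on the 6 libraries of its groups. The filter on low counts (edgeR's filterByExpr over 9 libraries, minimum count 10, smallest group 3) left 8789 genes, which were called at a Benjamini-Hochberg adjusted p under 0.05. SE was derived from the F statistic. CPM and TPM were computed here from the counts and union exon lengths. 3 counts correspond to 0.0637 to 0.0983 CPM per library, and floors cover counting error only. Values in every library are given for the exosome genes, Rat1 and the 4 assembly factors with the highest and the 4 with the lowest fold change per comparison. Members, lists and rules were chosen with earlier results of these data known.

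Same-numbered libraries deviated together from their group means in IP and Input (r from 0.316 to 0.452 over genes, log2 CPM with 0.5 added). These numbers were therefore taken to pair the samples of IP and Input. The main fits had no term for the replicate number, so their calls leave this pairing out. Alternatives were DESeq2 1.42.0, its size factors, library totals, a filter of 1 or more counts in any library, a filter on a mean of 50, all 9 libraries in 1 fit, the replicate block, loess corrections (span 0.3) for exon length and GC content, each library left out, and a threshold of 0.01. The fits were also run on counts simulated with a biological coefficient of variation of 0.15 in every comparison. The data had 0.596 for IP and IgG and 0.546 for IgG and Input. The simulation therefore cannot show how the fits behave at the spread of the comparisons with IgG.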

Additional observations from a re-analysis of the deposited data

How the results depend on the processing

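No called value of a gene changed direction in any of 1989 refits of single genes, while 52 calls were lost and 88 gained, and 102 values changed sign that were called neither before nor after. Scaling by library totals moved the median of all genes to 0.10 for IP over Input, 0.22 for IP over IgG and -0.14 for IgG over Input. With it the assembly medians were -0.13, 0.19 and -0.17, and the exosome median for IP over IgG was 0.12. Between IP and IgG the count of members called went from 1 to 7 with library totals, 2 with a mean of at least 50 counts, 8 with DESeq2, 9 with all 9 libraries in 1 fit and 3 with GC correction, and ran from 1 to 5 on leaving out a library. Between IgG and Input it went from 9 to 14 with all 9 libraries in 1 fit and to 2 at an adjusted p under 0.01, and ran from 2 to 13 on leaving out a library. For these counts and those with the replicate block, the share of all genes called is not given here. The assembly median for IgG over Input was -0.015 with DESeq2 and with its size factors, -0.022 with a mean of at least 50 counts, -0.16 with exon length correction and -0.087 with GC correction, and ran from -0.15 to -0.030 on leaving out a library. The exosome median for IP over Input ran from -0.57 to -0.38 on leaving out a library, and was -0.32 with library totals and -0.37 with exon length correction. The cause of these moves was not tested.

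With the replicate block, 32 members were called between IP and Input, all of the 30 and also bys and Surf6. In the other comparisons the numbers were not taken to pair the samples. Same-numbered libraries had r from 0.0374 to 0.239 for IP and IgG and from 0.0984 to 0.226 for IgG and Input. Libraries of different numbers had r from -0.201 to 0.108 and from -0.168 to 0.0647, in that order. IP replicate 1 correlated more with IgG replicate 2 than with IgG replicate 1. For IgG and Input every same-numbered r was above every other, so a pairing by number is possible there. The block gave 9 members between IP and IgG and, with exon length correction, 6. With the block and exon length correction the medians for IgG over Input were -0.18 for assembly factors and -0.56 for exosome subunits. IgG libraries detected fewer IDs and varied more, which limits both comparisons with them.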
